A study of Mus musculus with 8 samples.

Results

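The vascular endothelial growth factor (VEGF) genes described here are 4 ligands (Vegfa, Vegfb, Vegfc and Pgf), 3 receptor tyrosine kinases (Kdr, Flt1 and Flt4) and 2 neuropilin co-receptors (Nrp1 and Nrp2). They were chosen by symbol as the genes of the podocyte-to-endothelium VEGF signalling axis, and all 9 were found among the 17326 gene lines of the count table that held a count for every library. All 9 also passed the filter on low counts, which left 16477 genes for testing. The rule goes by symbol and sets no threshold on a measured value.

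Polyadenylated RNA was sequenced from mouse kidney glomerular cells separated by fluorescence-activated cell sorting. The 8 libraries form 4 groups of 2: endothelium and podocytes from EMCN+/+ (wild-type) mice, and the same cell types from EMCN-/- (knockout) mice. Emcn encodes endomucin, a sialomucin of the endothelial surface. No group carried another allele or a treatment in the labels, and the labels gave neither the animals' age, nor the deleted portion of Emcn, nor whether libraries came from separate animals, so the p-values measure only the spread between these libraries.

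In the glomerulus, podocytes lie on the outer side of a basement membrane and are the main source of VEGF-A, which crosses to receptors on the fenestrated endothelium of the capillaries. VEGF-A signals mainly through VEGFR2, the product of Kdr, while VEGFR1, the product of Flt1, binds VEGF-A tightly with weak kinase activity and is also made as a soluble trap. VEGF-B and placental growth factor bind VEGFR1, VEGF-C binds VEGFR3 (the product of Flt4) and VEGFR2, and the neuropilins bind both VEGF and class 3 semaphorins.

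Depth on complete lines was between 10478956 and 17386042 counts per library, and levels are given as CPM, counts relative to library sizes that were scaled between libraries by edgeR's TMM method. Cell type was the main axis of the principal components (47.2% of variance), and replicate 3 of wild-type endothelium stood apart on the next (18.6%). Emcn, the targeted gene, had 1972 and 1828 CPM in wild-type endothelium and 173 and 179 CPM in knockout endothelium (replicates 2 and 3), and it fell by 3.43 on the log2 scale (SE 0.35, edgeR adjusted p = 0.0205). It also fell by 3.38 in podocytes (SE 0.36, edgeR adjusted p = 0.0321), from 74.1 and 35.9 CPM to 5.59 and 4.94 CPM (replicates 2 and 3). Emcn was 34.5-fold higher in wild-type endothelium than in wild-type podocytes, and the part of carried-over endothelial RNA in its podocyte values was not tested. Its log2 fold change stayed between -3.49 and -3.11 in endothelium and between -3.81 and -2.74 in podocytes under the alternatives run, but it no longer passed in either cell type with scaling by library size alone (edgeR adjusted p = 0.0835 and 0.0786) or a mean filter of 5 CPM (0.0792 and 0.0975). The endothelial call was also lost without any 1 of the 4 endothelial libraries (edgeR adjusted p from 0.0838 to 0.191). The podocyte call was lost with limma voom (adjusted p = 0.34), in a fit of only the podocyte libraries (edgeR adjusted p = 0.194), and without wild-type endothelium replicate 2 or 3, wild-type podocyte replicate 2 or knockout podocyte replicate 2 or 3 (edgeR adjusted p from 0.0638 to 0.558). The defining markers matched the labelled cell types: Pecam1 was at 769 to 1039 CPM in the 4 endothelial libraries and at 30.0 to 48.7 CPM in the podocyte libraries, and Synpo was at 1727 to 4773 CPM in podocytes and at 137 to 333 CPM in endothelium. Summed tubule markers (9 tested of 15 listed) ranged from 2927 to 16008 CPM over the 8 libraries.

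Of the 9 genes, 6 differed between the cell types. In wild type, Kdr, Flt1, Flt4, Nrp1 and Vegfc were higher in endothelium and Vegfa was higher in podocytes, so that 6 of the 9 genes passed an edgeR adjusted p of 0.05, 5 higher and 1 lower in endothelium. Of all genes tested, 8.99% passed in that comparison, 4.26% higher and 4.73% lower in endothelium. In knockout the same 6 genes passed in the same directions, where 10.4% of all genes passed, 4.28% higher and 6.09% lower. Vegfb, Pgf and Nrp2 did not pass in either genotype. At an unadjusted p under 0.05 there were 7 members in wild type, Nrp2 being the added one, and 6 in knockout, against 19.6% and 22.9% of all genes. Libraries of the 2 cell types did not overlap for 8 of 9 members in wild type (all but Pgf) and 6 of 9 in knockout, against 46.9% and 55% of all genes. The median log2 fold change of the 9 genes, endothelium against podocytes, was 1.90 in wild type and 2.18 in knockout, against -0.01 for all genes tested in each. In bulk RNA from sorted cells, fewer cells of a type and less RNA per cell cannot be told apart.

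**Figure D1:**
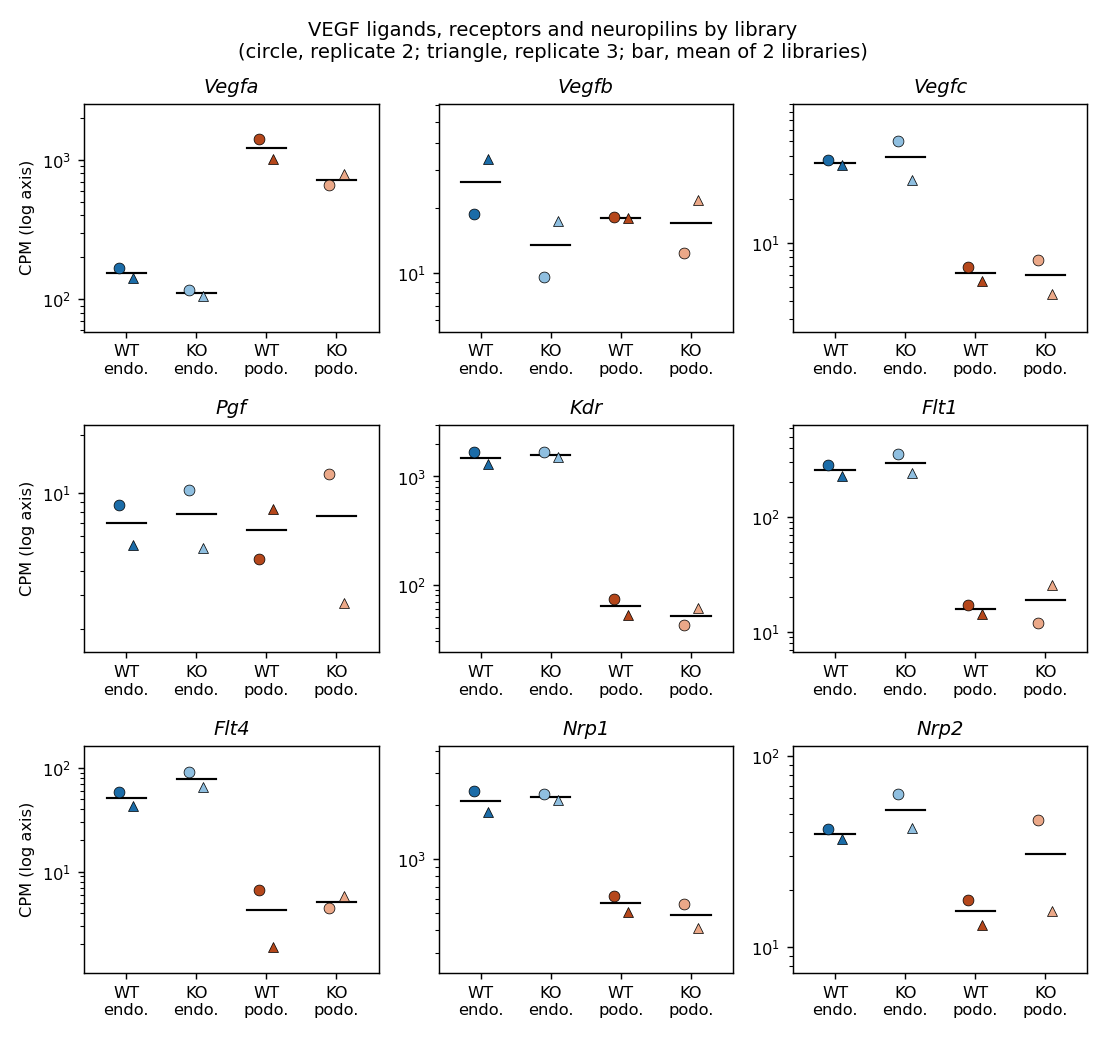
Each panel plots 1 gene, with the level in CPM on a log axis for each of the 8 libraries in the 4 groups (WT, wild type; KO, knockout; endo., endothelium; podo., podocytes). Circles are replicate 2, triangles replicate 3 and bars the mean of 2 libraries; Vegfa is highest in podocytes, Vegfc, Kdr, Flt1, Flt4 and Nrp1 are highest in endothelium, and Pgf overlaps between all 4 groups.

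Vegfa was the member higher in podocytes, and Nrp1, Kdr and Flt1 were the most abundant per kilobase of those higher in endothelium; the sequences just upstream of their annotated starts are shown to let them be compared. For Kdr, Flt1 and Nrp1 the start used by the promoter table lies inside the gene's full annotated span, so these windows precede an internal start. The windows run from 250 to 11 bases before the start, are taken from RefSeq on GRCm38.p6 and are written 5′ to 3′ on the gene's strand. Capitals mark 3 motifs searched on both strands: the GC box (GGGCGG or CCGCCC), the core of the ETS family element (GGAA or TTCC) and the core of the hypoxia response element (ACGTG or CACGT).
Vegfa, chr17:46032388-46032627, minus strand: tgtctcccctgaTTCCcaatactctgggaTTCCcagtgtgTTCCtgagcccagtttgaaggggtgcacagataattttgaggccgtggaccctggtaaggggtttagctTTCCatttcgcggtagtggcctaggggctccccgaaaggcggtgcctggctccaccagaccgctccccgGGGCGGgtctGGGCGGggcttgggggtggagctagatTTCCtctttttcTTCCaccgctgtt
Kdr, chr5:75978466-75978705, minus strand: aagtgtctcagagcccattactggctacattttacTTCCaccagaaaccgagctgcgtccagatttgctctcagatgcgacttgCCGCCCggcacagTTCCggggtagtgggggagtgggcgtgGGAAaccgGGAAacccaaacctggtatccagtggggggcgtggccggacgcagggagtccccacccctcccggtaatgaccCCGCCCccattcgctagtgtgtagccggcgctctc
Flt1, chr5:147726022-147726261, minus strand: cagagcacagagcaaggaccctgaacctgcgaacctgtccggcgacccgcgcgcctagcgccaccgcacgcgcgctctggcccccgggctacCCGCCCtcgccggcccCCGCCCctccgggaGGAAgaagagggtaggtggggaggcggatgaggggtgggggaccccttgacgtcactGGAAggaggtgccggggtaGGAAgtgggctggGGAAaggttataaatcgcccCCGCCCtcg
Nrp1, chr8:128358823-128359062, plus strand: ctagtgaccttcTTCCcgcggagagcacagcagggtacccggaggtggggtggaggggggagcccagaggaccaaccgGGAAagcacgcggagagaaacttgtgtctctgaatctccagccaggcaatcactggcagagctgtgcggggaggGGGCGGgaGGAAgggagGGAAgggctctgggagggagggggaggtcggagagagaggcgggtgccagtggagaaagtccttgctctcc
No capital letters in these 4 windows overlap between motifs. The Vegfa window held 2 GC boxes and 6 ETS cores, the Kdr window 2 and 4, the Flt1 window 3 and 4, and the Nrp1 window 1 and 4. None of the 4 held a hypoxia core in these letters. Another annotated start of Vegfa, whose window (chr17:46025174-46025413) overlaps an exon and is not printed, had 1 hypoxia core, 1 GC box and 1 ETS core there. Among the 32851 RefSeq windows of the same length, 31.3% held a GC box, 92.7% an ETS core and 15.9% a hypoxia core, so an ETS core was common to most promoters. GC content was 59.2% for Vegfa, 62.1% for Kdr, 70.8% for Flt1 and 65.0% for Nrp1, above the median of 52.1% over all windows. These matches describe letters and not bound sites.

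Vegfa, at chr17:46016993-46032377 on GRCm38.p6 and the gene for the main VEGF of the glomerulus, was the podocyte gene of the set. Its levels in wild-type podocytes were 1410 and 1012 CPM (replicates 2 and 3), and in wild-type endothelium 167 and 141 CPM. In knockout podocytes it was at 658 and 787 CPM, and in knockout endothelium at 116 and 105 CPM. All 4 podocyte libraries lay above all 4 endothelial libraries. Endothelium was lower by a log2 fold change of -2.97 in wild type (SE 0.27, edgeR adjusted p = 0.000103) and of -2.71 in knockout (SE 0.27, edgeR adjusted p = 0.000163). Mean levels in wild-type podocytes placed Vegfa above 99.5% of the genes ranked by level per kilobase. The gene's 13 annotated transcripts include the isoforms that differ in binding to matrix, and counts per gene cannot separate them.

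Vegfb, the gene of a VEGFR1 ligand, did not divide by cell type. It had 18.7 and 33.7 CPM in wild-type endothelium, 9.59 and 17.3 CPM in knockout endothelium, 18.1 and 17.9 CPM in wild-type podocytes and 12.4 and 21.8 CPM in knockout podocytes. The wild-type endothelial libraries lay just above the wild-type podocyte libraries, while the knockout groups overlapped. The log2 fold change of endothelium against podocytes was 0.54 in wild type (SE 0.40, edgeR adjusted p = 0.551) and -0.35 in knockout (SE 0.41, edgeR adjusted p = 0.681).

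Vegfc, which encodes the ligand of VEGFR3 and a growth factor of lymphatic vessels, was an endothelial gene here. It was at 37.2 and 34.2 CPM in wild-type endothelium and at 50.6 and 27.3 CPM in knockout endothelium. Podocytes held 6.87 and 5.52 CPM in wild type and 7.58 and 4.42 CPM in knockout, so no podocyte library reached an endothelial one. Endothelium was higher by 2.52 on the log2 scale in wild type (SE 0.38, edgeR adjusted p = 0.00166) and by 2.69 in knockout (SE 0.38, edgeR adjusted p = 0.00132).

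Pgf, the gene of placental growth factor, was the least abundant ligand in endothelium per kilobase of transcript. It ranged from 5.25 CPM (knockout replicate 3) to 10.4 CPM (knockout replicate 2) in endothelium and from 2.73 CPM (knockout replicate 3) to 12.5 CPM (knockout replicate 2) in podocytes. The knockout podocyte pair alone spanned the values of the other 6 libraries. Its interval for endothelium against podocytes in wild type was -1.34 to 1.60 on the log2 scale (95%).

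Kdr, the gene of the main signalling receptor for VEGF-A, had the widest gap between the cell types of the 9 genes. It was at 1673 and 1295 CPM in wild-type endothelium and at 1666 and 1498 CPM in knockout endothelium. Podocytes held 74.1 and 52.1 CPM in wild type and 42.7 and 60.9 CPM in knockout. The endothelial libraries lay far above every podocyte library. Endothelium was 23.5-fold higher in wild type (log2 fold change 4.56, SE 0.33, edgeR adjusted p = 4.32e-05) and 30.5-fold higher in knockout (log2 fold change 4.93, SE 0.34, edgeR adjusted p = 2.47e-05).

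Flt1, the gene of the high-affinity VEGFR1, followed at a lower level. It had 282 and 225 CPM in wild-type endothelium and 354 and 240 CPM in knockout endothelium, against 17.0 and 14.4 CPM in wild-type podocytes and 11.9 and 25.7 CPM in knockout podocytes. Again no podocyte library overlapped an endothelial one. Endothelium was higher by 4.01 on the log2 scale in wild type (SE 0.39, edgeR adjusted p = 0.000127) and by 3.98 in knockout (SE 0.38, edgeR adjusted p = 0.000135). The knockout value was 4.63 without knockout podocyte replicate 3, which held the higher podocyte level, and 3.52 without replicate 2. Reads of the membrane-bound and the soluble form of VEGFR1 are counted together in these data.

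Flt1 counts were 16.9% and 17.4% of Kdr counts in wild-type endothelium and 21.2% and 16.0% in knockout endothelium. The knockout pair spanned the wild-type pair, and the mean log2 ratio differed by 0.10 (two-sided exact permutation p = 1). With 2 libraries against 2, the smallest p that test can give is 0.333.

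Flt4, the gene of VEGFR3, was the least abundant receptor kinase per kilobase of transcript. It was at 58.7 and 43.4 CPM in wild-type endothelium, 91.1 and 65.3 CPM in knockout endothelium, 6.68 and 1.89 CPM in wild-type podocytes and 4.47 and 5.83 CPM in knockout podocytes. Endothelium was higher by 3.56 on the log2 scale in wild type (SE 0.49, edgeR adjusted p = 0.000975) and by 3.93 in knockout (SE 0.50, edgeR adjusted p = 0.000636). The wild-type value rested on podocyte libraries with 103 and 26 counts: it was 4.76 without wild-type podocyte replicate 2 and 2.93 without replicate 3, past the threshold each time. Flt4 is also a gene of lymphatic endothelium. The 6 lymphatic markers listed, all tested, summed to 49.0 to 84.3 CPM in endothelium and 162 to 279 CPM in podocytes. The higher podocyte sums did not hold marker by marker. For endothelium against podocytes, 4 of the 6 had positive log2 fold changes and 2 negative ones in wild type, and 5 and 1 in knockout. The mean log2 CPM of the 6 in endothelium was 2.33 and 1.40 for wild type and 2.89 and 3.38 for knockout. In podocytes it was 1.34 and 1.70 for wild type and 1.48 and 1.91 for knockout. In 3 of the 4 podocyte libraries 1 of the 6 was at 0, and in endothelium none was, and the markers' part in the Flt4 values was not tested.

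Nrp1, the co-receptor that joins VEGF-A to VEGFR2, was abundant on both sides. It was at 2387 and 1833 CPM in wild-type endothelium and at 2298 and 2138 CPM in knockout endothelium, with 625 and 504 CPM in wild-type podocytes and 563 and 414 CPM in knockout podocytes. Every endothelial library lay above every podocyte library. Endothelium was higher by 1.90 on the log2 scale in wild type (SE 0.29, edgeR adjusted p = 0.00176) and by 2.18 in knockout (SE 0.29, edgeR adjusted p = 0.000922).

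Nrp2, the co-receptor of VEGF-C and class 3 semaphorins, had 41.4 and 36.8 CPM in wild-type endothelium, 63.0 and 42.0 CPM in knockout endothelium, 17.7 and 13.1 CPM in wild-type podocytes and 46.2 and 15.4 CPM in knockout podocytes. Knockout podocyte replicate 2 lay within the endothelial range and the other 3 podocyte libraries lay below it. The difference of endothelium from podocytes was 1.34 on the log2 scale in wild type (SE 0.44, edgeR adjusted p = 0.102) and 0.77 in knockout (SE 0.43, edgeR adjusted p = 0.337). Among other settings in wild type it passed with DESeq2 (adjusted p = 0.0226), in a fit of only the 4 libraries compared (edgeR adjusted p = 0.00354), and without either knockout podocyte library, while its adjusted p over all alternatives ran from 0.00354 to 0.355. In knockout it passed without knockout podocyte replicate 2 (1.76, edgeR adjusted p = 0.0168) and was 0.18 without replicate 3, with an edgeR adjusted p of up to 0.787 when any 1 library was left out.

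**Figure D2:**
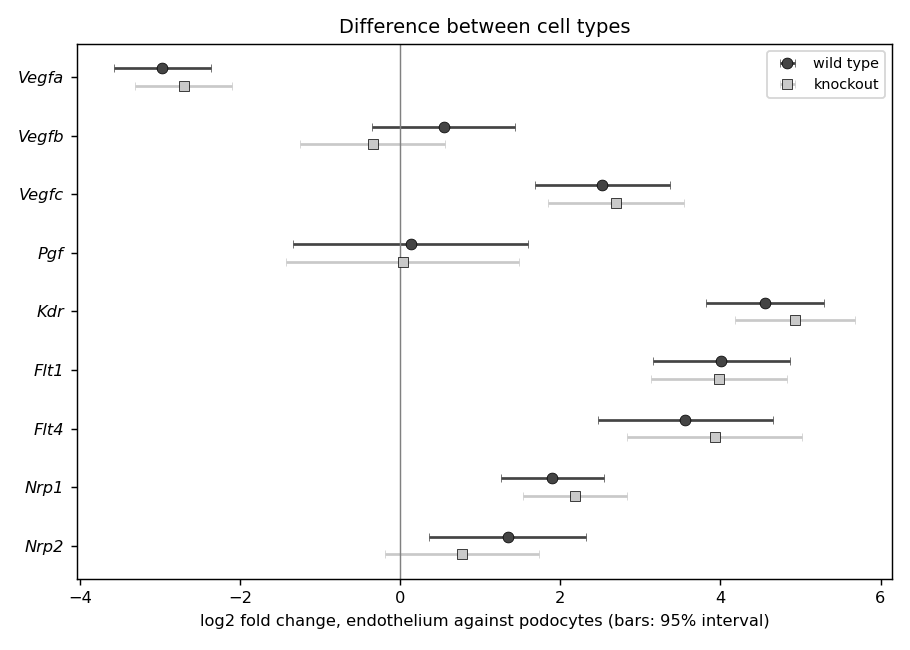
The log2 fold change of endothelium against podocytes (horizontal axis) is plotted for the 9 genes in wild type (dark circles) and knockout (light squares), with 95% intervals from the edgeR fit. Kdr, Flt1, Flt4, Vegfc and Nrp1 lie to the right of 0 in both genotypes, Vegfa lies to the left at -2.97 and -2.71, and the intervals of Pgf cross 0 in both.

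Compared between genes as CPM per kilobase of the longest annotated transcript, Nrp1 led in wild-type endothelium with a mean of 579 ± 108 (SD, n = 2). Kdr followed at 251 ± 45.1, then Vegfa at 44.7 ± 5.41, Flt1 at 36.8 ± 5.87 and Vegfb at 20.5 ± 8.30. Vegfc was at 14.6 ± 0.844, Flt4 at 8.16 ± 1.74, Nrp2 at 5.82 ± 0.481 and Pgf at 3.39 ± 1.10. Of neighbours in this order, Vegfa and Flt1 overlapped between libraries, as did Vegfb and Vegfc. The others did not overlap.

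In wild-type podocytes the order per kilobase began with Vegfa at a mean of 351 ± 81.4 (SD, n = 2) and Nrp1 at 155 ± 23.4. Vegfb at 14.1 ± 0.159 and Kdr at 10.7 ± 2.62 came next, without overlap. Pgf at 3.10 ± 1.25, Vegfc at 2.53 ± 0.391 and Nrp2 at 2.29 ± 0.479 each overlapped the next, followed by Flt1 at 2.28 ± 0.274, which did not overlap the lowest, Flt4 at 0.684 ± 0.541. In knockout the first 2 ranks of each cell type were held by the same genes, and in endothelium Flt1 (43.0 ± 11.7) stood above Vegfa (32.1 ± 2.17) without overlap. In knockout podocytes Vegfa was at 209 ± 26.5 and Nrp1 at 134 ± 28.9 per kilobase. Ranks 1 and 2 in each group were also the same with the median transcript length of each gene, while lower ranks changed places, and the Vegfa level in wild-type podocytes was then 1385 per kilobase because its median transcript is short.

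Markers of each cell type were also counted in the other fraction, and they give a scale for the members. Among 14 endothelial markers tested, the mean wild-type podocyte level was a median of 7.12% of the endothelial level, from 2.96% for Egfl7 to 294% for Cldn5, a tight junction gene that was higher in podocytes. Kdr at 4.25%, Flt1 at 6.19% and Flt4 at 8.39% lay among these markers. Vegfc at 17.4%, Nrp1 at 26.8% and Nrp2 at 39.4% lay above 13 of the 14. In knockout the shares were 3.28% for Kdr, 6.34% for Flt1, 6.59% for Flt4, 15.4% for Vegfc, 22.0% for Nrp1 and 58.7% for Nrp2, against a marker median of 5.07%. Vegfc then lay below Erg (19.0%) and Cldn5 (158%) among the markers, and Nrp1 and Nrp2 below Cldn5 alone.

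In the other direction, wild-type endothelium held Vegfa at 12.7% of the podocyte level. The 12 podocyte markers tested had a median of 10.1%, from 7.03% for Synpo to 26.6% for Clic5. In knockout the share was 15.3% for Vegfa and a median of 11.3% for the markers, from 6.10% for Lmx1b to 39.6% for Clic5. By mean levels, Vegfa in endothelium was thus within the range of podocyte markers in both genotypes. The 2 wild-type endothelial libraries differed, with Vegfa 0.98 (replicate 2) and 1.91 (replicate 3) log2 units above the mean of these markers. The part of carried-over RNA in any of these levels was not tested.

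**Figure D3:**
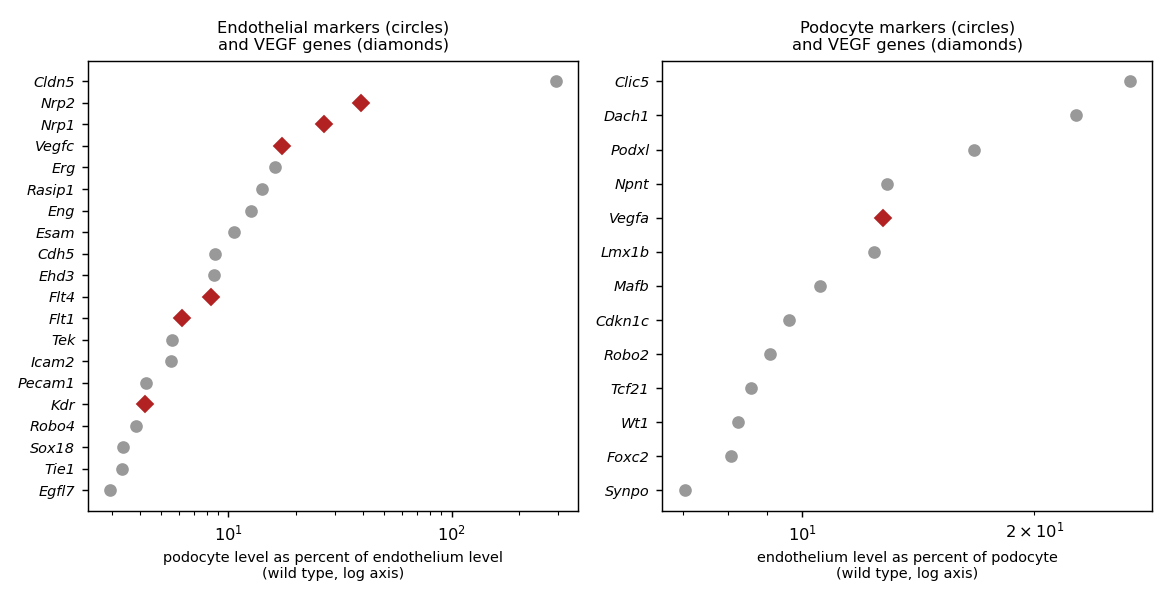
For wild type, the left panel plots the podocyte level as a percent of the endothelial level (log axis) for 14 endothelial markers (grey circles) and 6 VEGF genes (red diamonds), and the right panel the endothelial level as a percent of the podocyte level for 12 podocyte markers and Vegfa. Kdr, Flt1 and Flt4 lie among the endothelial markers, Vegfc, Nrp1 and Nrp2 lie above all of these markers but Cldn5, and Vegfa lies among the podocyte markers.

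Loss of endomucin was compared with wild type within each cell type. No member passed in endothelium or in podocytes, with edgeR, DESeq2 or limma voom; at an unadjusted p under 0.05 there was 1 in endothelium (Vegfb) and there were 2 in podocytes (Vegfa and Nrp2). Over all genes, 0.00607% passed the adjusted threshold with edgeR in each cell type, which was Emcn alone, and the share with an unadjusted p under 0.05 was 5.49% for endothelium and 4.43% for podocytes. Knockout and wild-type libraries did not overlap for 4 of 9 members in endothelium and 1 of 9 in podocytes, against 44.5% and 31.2% of all genes tested. In endothelium those were 2 higher and 2 lower members, against 24.8% and 19.7% of all genes, and in podocytes 1 lower, against 16%. In simulated counts for the endothelial comparison, edgeR recovered 6.25% of 80 genes changed 2-fold and 64.6% of 79 changed 4-fold, so changes of about 2-fold were mostly below what this design detects.

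In podocytes, Vegfa had the smallest p of the 9 genes. Its knockout libraries, at 658 and 787 CPM, both lay below its wild-type libraries, at 1410 and 1012 CPM. The log2 fold change was -0.74 (SE 0.26, 95% interval -1.31 to -0.18), or 0.597 of the wild-type level, with an unadjusted p of 0.015 and an edgeR adjusted p of 0.978. It did not pass. Over all alternatives the value ran from -0.97 to -0.47 and kept its sign.

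Podocyte markers lay on the same side of 0 in this comparison. All 12 tested of 20 listed had negative log2 fold changes, with a median of -0.62 against 0.02 for all genes, although 0 passed with edgeR and 1 had an unadjusted p under 0.05. Their summed level was 21926 and 14566 CPM in wild-type podocytes and 10800 and 11979 CPM in knockout podocytes, without overlap. Podxl, a sialomucin of the podocyte surface, was at 6298 and 4578 CPM in wild type and at 2738 and 4154 CPM in knockout. Relative to the mean of the 12 markers, Vegfa stood 1.19 and 1.26 log2 units higher in wild-type podocytes and 1.04 and 1.16 in knockout podocytes. That difference of -0.12 between the means is smaller than the -0.74 of Vegfa itself, and its two-sided exact permutation p was 0.333, the smallest possible. The part of the podocyte markers' shift in the Vegfa value was not tested further.

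**Figure D4:**
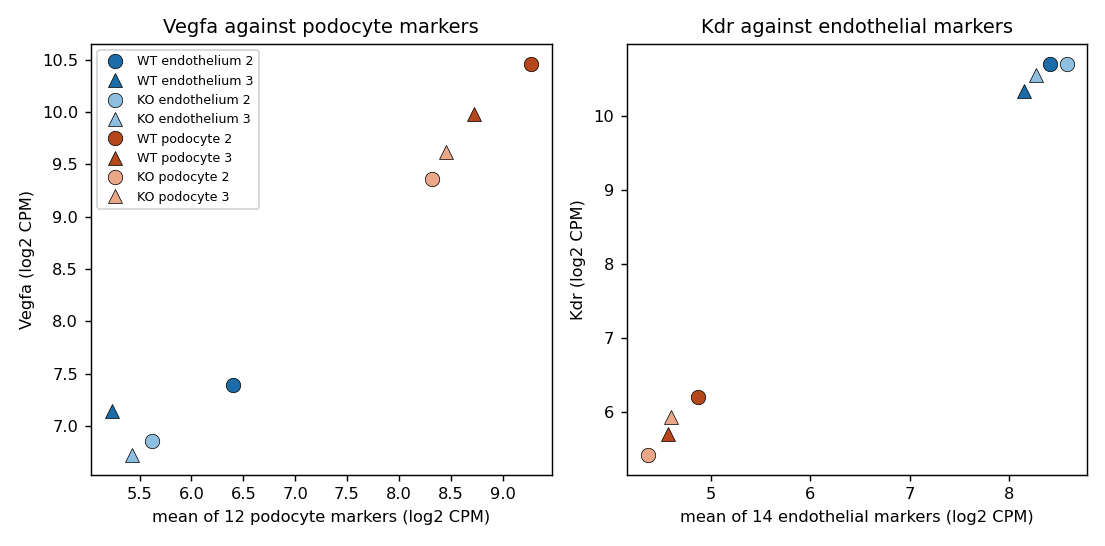
Left, the log2 CPM of Vegfa against the mean log2 CPM of 12 podocyte markers; right, the log2 CPM of Kdr against the mean of 14 endothelial markers; each point is 1 of the 8 libraries, coloured by group, with circles for replicate 2 and triangles for replicate 3. The knockout podocyte libraries lie below the wild-type ones on both axes of the left panel, and the 4 endothelial libraries of the right panel show Kdr interleaved by genotype.

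Nrp2 was the other gene with an unadjusted p under 0.05 in podocytes. It was 2-fold higher in knockout (95% interval 1.02-fold to 3.94-fold, edgeR adjusted p = 0.978), and this rested on knockout podocyte replicate 2, at 46.2 CPM against 13.1 to 17.7 CPM in the other 3 podocyte libraries. Without that library the log2 fold change was -0.0052. Mesangial and mural markers, 10 tested of 13 listed, summed to 1512 CPM in that library and to 1238, 1167 and 628 CPM in the other 3 podocyte libraries, with a mean log2 CPM of 6.60 against 5.37 to 5.99 and none at 0. Their part in the Nrp2 value was not tested. The same library held the highest Pgf level of all 8.

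For the receptors and Nrp1 in podocytes, the log2 fold changes were -0.28 for Kdr (SE 0.29), 0.25 for Flt1 (SE 0.35), 0.25 for Flt4 (SE 0.48) and -0.21 for Nrp1 (SE 0.28), each with an edgeR adjusted p of 0.978 or more. Among the other ligands they were -0.08 for Vegfb (SE 0.40), -0.04 for Vegfc (SE 0.38) and 0.25 for Pgf (SE 0.66). For each of these 7 genes the knockout and wild-type libraries overlapped.

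Kdr, whose product carries most VEGF-A signalling in endothelium, was there at 1673 and 1295 CPM in wild type and at 1666 and 1498 CPM in knockout, with the knockout pair inside the wild-type pair. Its log2 fold change was 0.09 with a 95% interval of -0.54 to 0.73 (edgeR adjusted p = 0.926), which leaves room for a fold between 0.685 and 1.66. Nrp1 was at 0.07 with an interval of -0.55 to 0.69. With scaling by library size alone the values were 0.40 for Kdr and 0.38 for Nrp1. Against the mean of the endothelial markers, Kdr differed by -0.04 log2 units between genotypes (two-sided exact permutation p = 0.667). The endothelial markers themselves had a median log2 fold change of 0.20, with 0 of 14 past the threshold with edgeR and 0 at an unadjusted p under 0.05.

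Vegfb was the endothelial gene with the smallest p. It was at 18.7 and 33.7 CPM in wild type and at 9.59 and 17.3 CPM in knockout, so that the groups were separated by the narrow gap between 17.3 and 18.7 CPM. Its log2 fold change was -0.97 (SE 0.41, edgeR adjusted p = 0.716), and it did not pass under any alternative run. Leaving out 1 library moved it between -1.46 (without knockout replicate 3) and -0.49 (without wild-type replicate 3), and it was -0.62 with scaling by library size alone and -1.03 with DESeq2 size factors. Summed tubule markers in endothelium were 7461 and 16008 CPM in wild type and 2927 and 7152 CPM in knockout. They were in the same order over these 4 libraries as Vegfb, and their part in the Vegfb value was not tested.

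Vegfa was also lower in knockout endothelium, at 116 and 105 CPM against 167 and 141 CPM in wild type, without overlap. This was a log2 fold change of -0.48 (SE 0.26, edgeR adjusted p = 0.716), which ran from -0.60 to -0.36 with 1 library left out and was -0.16 with scaling by library size alone and -0.32 with a mean filter of 5 CPM. Podocyte markers in the same comparison had a median of -0.38 with 10 of 12 negative, against 0.01 and 49.7% negative for all genes. Their sums overlapped, at 3210 and 1727 CPM in wild type and 2105 and 1968 CPM in knockout. Relative to the markers' mean, Vegfa stood 0.98 and 1.91 log2 units higher in wild type and 1.24 and 1.30 in knockout, again with overlap. The markers' part in the endothelial Vegfa value was not tested. Flt4 and Nrp2 lay higher in knockout endothelium without overlap, by 0.62 (SE 0.43, edgeR adjusted p = 0.726) and 0.43 (SE 0.43, edgeR adjusted p = 0.772). Without knockout endothelium replicate 2, Nrp2 was at 0.095 and Flt4 at 0.35, and without wild-type endothelium replicate 3 Flt4 was at 0.40. The lymphatic markers also lay higher in knockout endothelium without overlap, with sums of 64.4 and 84.3 CPM against 61.9 and 49.0 CPM, and their part in the Flt4 and Nrp2 values was not tested. The remaining 3 genes overlapped, with 0.13 for Vegfc (SE 0.35), 0.15 for Pgf (SE 0.66) and 0.22 for Flt1 (SE 0.34). Genes of the response to tissue dissociation moved in this comparison too: all 20 tested had negative log2 fold changes, with a median of -0.66, and their part in the members' values was not tested.

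**Figure D5:**
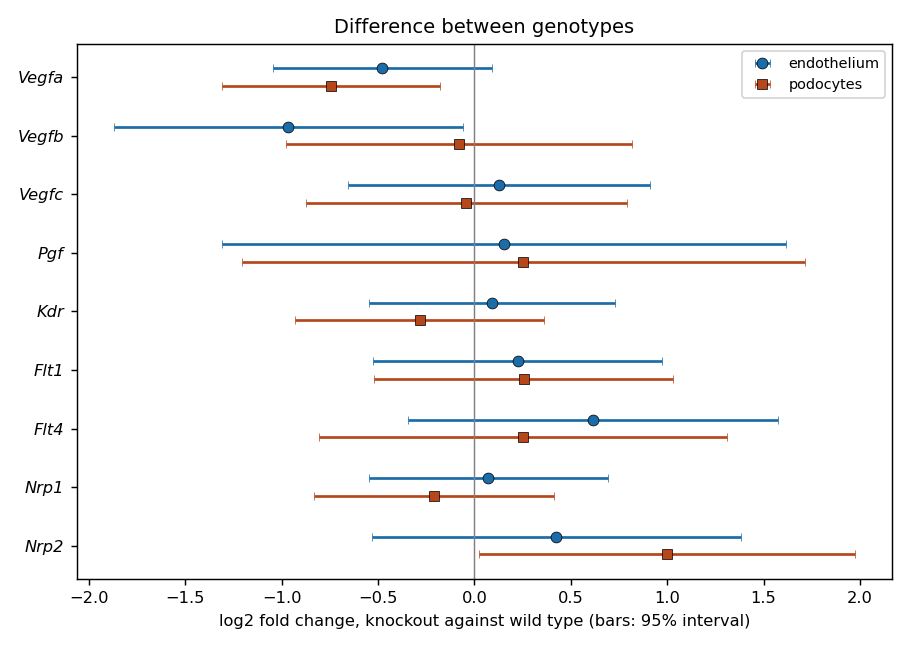
The log2 fold change of knockout against wild type (horizontal axis) is plotted for the 9 genes in endothelium (blue circles) and podocytes (orange squares), with unadjusted 95% intervals from the edgeR fit. Only Vegfb in endothelium and Vegfa and Nrp2 in podocytes have intervals that leave out 0, and none passed after adjustment over all genes tested.

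Whether the genotype difference itself differed between cell types was tested as an interaction, endothelium minus podocytes. None of the 9 genes passed with edgeR, DESeq2 or limma voom, none had an unadjusted p under 0.05, and every edgeR adjusted p was 1. Of all genes, 0% passed and 2.6% had an unadjusted p under 0.05. The largest values in size were -0.89 for Vegfb (SE 0.57), -0.58 for Nrp2 (SE 0.61) and 0.38 for Kdr (SE 0.41). For Vegfa the interaction was 0.27 (SE 0.36). With 1 library left out these ran from -1.38 to -0.40 for Vegfb, from -1.16 to 0.42 for Nrp2, from 0.10 to 0.65 for Kdr and from 0.0092 to 0.48 for Vegfa.

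Downstream of the receptors, members of the signal transduction list lay on both sides of the cell-type comparison. Of 41 tested signal transduction genes (60 listed), 5 were higher and 4 lower in wild-type endothelium than in podocytes, where 4.26% and 4.73% of all genes were; the same shares apply to the lists that follow. Prkd2, a protein kinase D, was higher by 2.23 on the log2 scale (SE 0.25, edgeR adjusted p = 0.00028), and Mapk3, which encodes ERK1, by 1.55 (SE 0.22, edgeR adjusted p = 0.00134). Akt2, a kinase downstream of PI3-kinase, was at -1.62 (SE 0.23, edgeR adjusted p = 0.00129) and Nck2, an SH2 and SH3 adaptor, at -2.29 (SE 0.42, edgeR adjusted p = 0.00568). By genotype, 0 of the 41 passed with edgeR in either cell type, with 2 in endothelium and 1 in podocytes at an unadjusted p under 0.05 (5.49% and 4.43% of all genes, here and for the lists that follow). The list's median in endothelium was -0.22, with 33 of 41 negative, against 0.01 for all genes, of which 49.7% were negative. Scaling by library size alone moved the median of all genes in this comparison by 0.33, and the sign of the list's median turned with it. The list's median was then 0.12, with 13 of 41 negative, against 0.33 for all genes, of which 21.5% were negative. It lay below the median of all genes with both scalings. The dissociation genes and the summed tubule markers were lower in the same knockout libraries, and their part in the list's values was not tested.

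Among 15 tested genes of receptor trafficking and dephosphorylation (32 listed), 4 were higher and 3 lower in wild-type endothelium. Efnb2, the ephrin that takes part in VEGF receptor uptake, was higher by 2.46 (SE 0.32, edgeR adjusted p = 0.000672), and Cdh5, the cadherin that joins VEGFR2 at junctions, by 3.51 (SE 0.35, edgeR adjusted p = 0.000151). Cavin1, a coat protein of caveolae, was at -1.44 (SE 0.24, edgeR adjusted p = 0.00301) and Myo6, a motor of endocytic vesicles, at -1.39 (SE 0.24, edgeR adjusted p = 0.00422). Of 5 tested semaphorin and plexin genes (13 listed), which supply the other ligands and partners of the neuropilins, 3 were higher and 1 lower. The plexins Plxna2 (1.52, SE 0.25, edgeR adjusted p = 0.00293), Plxna4 (1.59, SE 0.32, edgeR adjusted p = 0.00895) and Plxnd1 (1.39, SE 0.37, edgeR adjusted p = 0.0418) were the higher ones, and Plxna3 (-1.62, SE 0.40, edgeR adjusted p = 0.027) the lower. By genotype 0 genes of either list passed with edgeR, and at an unadjusted p under 0.05 there were 0 in endothelium and 1 of each list in podocytes, Cavin1 at -0.55 and Plxna4 at 0.71.

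Transcripts known to rise when VEGF acts on endothelium were also listed, although VEGF action itself was not measured. Between the cell types, their differences cannot be told apart from differences of cell identity. Of 17 tested (28 listed), 5 were higher and 0 lower in wild-type endothelium with edgeR (4.26% and 4.73% of all genes), 10 of the 17 having an unadjusted p under 0.05 in either direction (19.6% of all genes). Hlx, a homeobox gene, was higher by 4.35 (SE 0.32, edgeR adjusted p = 4.32e-05) and Cd34, a sialomucin of capillary endothelium, by 2.87 (SE 0.32, edgeR adjusted p = 0.000245). Of the 17, 7 had negative values in wild type. Between the knockout cell types, 6 were higher and 3 lower in endothelium (4.28% and 6.09% of all genes). The lower ones included Egr2 at -1.86 (SE 0.33, edgeR adjusted p = 0.00462) and Angpt2 at -2.18 (SE 0.55, edgeR adjusted p = 0.03). By genotype 0 passed with edgeR, with 4 in endothelium and 1 in podocytes at an unadjusted p under 0.05 (5.49% and 4.43% of all genes), and the list's endothelial median was 0.08 against 0.01 for all genes, with 10 positive and 7 negative.

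Esm1, which encodes the secreted proteoglycan endocan, had the smallest p among the positive values of that list in endothelium. It was at 46.7 and 35.1 CPM in wild type and at 228 and 71.8 CPM in knockout. Both knockout libraries lay above both wild-type libraries, with knockout replicate 2 far above knockout replicate 3. Knockout stood at a log2 fold change of 1.87 (SE 0.45, edgeR adjusted p = 0.716). Egr2, an immediate early gene, had the smallest p among the negative values, at -0.87 (SE 0.32, edgeR adjusted p = 0.716). The 20 dissociation genes, many of them immediate early genes too, had negative values in the same comparison (median -0.66), and their part in the Egr2 value was not tested. In podocytes Angpt2, which encodes the TIE2 ligand angiopoietin 2, was at 606 and 154 CPM in knockout against 161 and 136 CPM in wild type. The groups overlapped, and only knockout replicate 2 stood out, the library with the highest Nrp2 level of the podocytes. The log2 fold change was 1.36 (SE 0.53, edgeR adjusted p = 0.978). Among podocyte libraries, knockout replicate 2 also held the highest mesangial and mural markers (sum 1512 CPM, mean log2 CPM 6.60), and their part in the Angpt2 value was not tested.

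Of 15 tested genes of oxygen sensing and the hypoxia response (22 listed), a pathway that raises Vegfa transcription, 1 was higher and 1 lower in wild-type endothelium (4.26% and 4.73% of all genes). Epas1, which encodes HIF-2 alpha, was higher by 1.93 (SE 0.37, edgeR adjusted p = 0.00663), and Adm, the gene of the vasodilator adrenomedullin, was at -1.96 (SE 0.23, edgeR adjusted p = 0.00033). By genotype 0 passed with edgeR, with 2 in endothelium and 1 in podocytes at an unadjusted p under 0.05 (5.49% and 4.43% of all genes). The median was -0.30 in endothelium, with 13 of 15 negative, and -0.03 in podocytes, with 8 of 15 negative, against 0.01 and 0.02 for all genes, of which 49.7% and 47.8% were negative. With scaling by library size alone the medians were 0.038 and 0.083, with 6 of 15 negative in each cell type, against 0.33 and 0.13 for all genes. The mean level of the 20 dissociation genes was 9.48 and 9.88 log2 CPM in wild-type endothelium and 8.80 and 9.05 log2 CPM in knockout endothelium, and its part in this list's endothelial values was not tested.

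Adm was the lowest-p gene of that list in knockout podocytes. It was at 352 and 275 CPM in wild-type podocytes and at 159 and 157 CPM in knockout podocytes, without overlap. Knockout podocytes were at a log2 fold change of -0.99 (SE 0.22, edgeR adjusted p = 0.978). In endothelium it was at 88.4 and 72.5 CPM in wild type and at 54.7 and 51.1 CPM in knockout, a log2 fold change of -0.60 (SE 0.22, edgeR adjusted p = 0.716). The podocyte markers were lower in the same knockout podocyte libraries, and their part in the Adm value was not tested.

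Of 17 tested genes for extracellular proteins that bind or release VEGF (20 listed), 1 was higher and 5 were lower in wild-type endothelium. Hspg2, the gene of the basement membrane proteoglycan perlecan, was higher by 1.48 (SE 0.27, edgeR adjusted p = 0.00487). Sulf1, a sulfatase that edits heparan sulfate, was at -3.03 (SE 0.42, edgeR adjusted p = 0.000991) and Ctsl, the gene of the protease cathepsin L, at -1.69 (SE 0.28, edgeR adjusted p = 0.00322). By genotype 0 passed with edgeR, with 2 in endothelium and 1 in podocytes at an unadjusted p under 0.05. Those 2 were Hspg2, at 0.61 in knockout endothelium (SE 0.26, edgeR adjusted p = 0.716), and Hs6st2, a heparan sulfate sulfotransferase gene named after its value was seen, at 1.47 (SE 0.65, edgeR adjusted p = 0.716). Sulf1 was at -0.93 in knockout podocytes (SE 0.39, edgeR adjusted p = 0.978). The podocyte markers were lower in the same libraries, and their part in the Sulf1 value was not tested. Vegfd, the remaining VEGF ligand gene, was at 33.5 and 48.8 CPM in wild-type endothelium and at 10.3 and 32.5 CPM in knockout endothelium (-0.95, SE 0.47, edgeR adjusted p = 0.716). The summed tubule markers were in the same order over these 4 libraries as Vegfd, as they were for Vegfb, and their part in the Vegfd value was not tested.

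Among 8523 genes whose mean level reached 10 CPM, the profile over the 8 libraries nearest to that of Vegfa was that of 4921504A21Rik, at a root mean square distance of 0.130 log2 units after centring, followed by Hoxc8 (0.182) and Arhgef16 (0.185). Nearest to Kdr were Pecam1 (0.175), Mmrn2 (0.204) and AU021092 (0.222). Nearest to Nrp1 were Amotl1 (0.127), Snrk (0.128) and Elf1 (0.139). All 8 libraries come from the same 2 cell types, so the distances describe likeness over these libraries only.

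Several members overlap other annotated genes: Vegfc overlaps Gm33153, Kdr overlaps Gm32727, Flt1 overlaps Gm35383, Nrp1 overlaps Mir1903 and Gm32643, and Nrp2 overlaps Gm29083 and 4930487H11Rik. The use of strand in counting is not given in the sources used here, so reads from such partners cannot be told apart from those of the members. Vegfa, Vegfb, Pgf and Flt4 overlap no other gene in the RefSeq table.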

How the data were processed

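Polyadenylated RNA of sorted mouse kidney cells was made into Illumina TruSeq libraries, per the labels' protocols. The authors deposited raw counts per Entrez gene, 8 columns named after 1 alignment file each, per the file headers. The genome build mm10 and DESeq2 are named in the submitters' processing notes, and the aligner, counter and annotation are not given in the sources used here. Of 22533 gene lines, 5207 (23.11%) had a comma in the description and fewer than 8 counts, and were not analysed here. These short lines left cells empty in 3 columns, while on complete lines all 8 columns held whole counts as deposited.

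Counts on the 17326 complete lines were tested with edgeR 4.0.16 (R 4.3.3): filterByExpr, TMM scaling, 1 mean per group over all 8 libraries, quasi-likelihood F tests, Benjamini-Hochberg adjustment over 16477 genes and a threshold of 0.05. Standard errors are the log2 fold change over the square root of F. CPM used TMM-scaled library sizes, and log2 CPM a prior count of 2. Ratios were compared by two-sided exact permutation tests. Lengths came from GENCODE M21 transcripts, coordinates and promoter windows from RefSeq on GRCm38.p6. Totals per library are given with the results, and each group holds 2 libraries. The steps were tested on simulated counts of 15783 genes, with 10 false calls among 95.

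The members, lists and tests were chosen with earlier results of these data known. Named genes were the members, Emcn, defining markers, for each of 6 lists up to 2 genes of smallest p per direction past the threshold between wild-type cell types and the 1 of smallest p per direction and genotype comparison, and the 3 profiles nearest to Vegfa, Kdr and Nrp1. Not all genes meeting this rule are printed, and Plxnd1, Cavin1 and Plxna4 are also named to account for a small count. Groups and replicate numbers came from the titles. Alternatives were DESeq2 1.42.0 and limma 3.58.1 voom, other scalings, filters and thresholds, the replicate block, fits of only the libraries compared and each library left out.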

Additional observations from a re-analysis of the deposited data

How the results depend on the processing

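Each group holds 2 libraries, so leaving 1 out assumes that its lone partner varies like the other groups. The number of members past the threshold was 0 for each genotype comparison and the interaction under every alternative run, and 6 or 7 between the cell types, Nrp2 being the seventh. With 1 library left out the Flt1 to Kdr difference ran from -0.099 to 0.31 and Kdr against endothelial markers from -0.12 to 0.035, both changing sign, and Vegfa against podocyte markers from -0.19 to -0.063. The replicate number as a block could not be shown to pair libraries (correlations of deviations 0.19 in endothelium, 0.16 in podocytes, -0.13 in wild type and 0.11 in knockout): with the replicate block 7 members passed between the cell types in wild type (Nrp2 at an edgeR adjusted p of 0.0176) and 6 in knockout, and all genes called numbered 1831 and 2241. With the podocyte numbers swapped in wild type, an alternative chosen after seeing the data, 6 members and 1357 genes passed.

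Values that changed sign were all far from the threshold. In knockout against wild-type podocytes, Vegfb was 0.029 and Vegfc 0.075 with library size only, Vegfc was 0.018 with a mean of at least 5 CPM, and Pgf was -0.077 with the replicate block. In the interaction, library size only, voom and a mean of at least 5 CPM gave 0.11, 0.14 and 0.026 for Pgf and 0.19, 0.083 and 0.045 for Flt1, and the replicate block gave 0.19 for Pgf. Pgf between wild-type cell types was -0.041 with the replicate block. The cause was not tested.

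Leaving out each library in turn changed a sign in these ranges. In endothelium by genotype, Vegfc ran from -0.40 to 0.49, Pgf from -0.43 to 0.55, Kdr from -0.089 to 0.28, Flt1 from -0.090 to 0.47 and Nrp1 from -0.11 to 0.27. In podocytes by genotype, Vegfb ran from -0.54 to 0.27, Vegfc from -0.49 to 0.29, Pgf from -1.24 to 0.96, Kdr from -0.56 to 0.0061, Flt1 from -0.40 to 0.70, Flt4 from -0.38 to 1.46 and Nrp2 from -0.0052 to 1.58. In the interaction, Vegfc ran from -0.35 to 0.61, Pgf from -0.82 to 1.38, Flt1 from -0.49 to 0.62, Flt4 from -0.83 to 0.99 and Nrp2 from -1.16 to 0.42. Between cell types, Pgf ran from -0.24 to 0.61 in wild type and from -0.69 to 1.51 in knockout, and Vegfb from -0.83 to 0.11 in knockout.

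Over all genes, the 1 call by genotype in endothelium became 4 with DESeq2 and 0 with library size only, with a mean of at least 5 CPM and without any 1 of the 4 endothelial libraries. The 1 call in podocytes became 8 with DESeq2 and 0 with library size only, voom, a mean of at least 5 CPM, only the libraries compared, and without wild-type endothelium replicate 2 or 3, wild-type podocyte replicate 2 or knockout podocyte replicate 2 or 3. Between wild-type cell types the 1481 calls became 922 without wild-type endothelium replicate 3 and 769 without wild-type podocyte replicate 2. In knockout the 1709 calls became 960 and 1115 without endothelium replicate 2 or 3, and 1079 without podocyte replicate 2. Scaling by library size only moved the median of all genes by 0.33 in endothelium by genotype, 0.11 in podocytes, 0.21 in the interaction and 0.28 between knockout cell types, where the share of calls higher in endothelium went from 41.3% to 60.6%.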
